A study of Homo sapiens with 6 samples.

Results

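SYT4 encodes synaptotagmin 4, a membrane protein of secretory vesicles, and is the gene described here, 1 of 17297 genes measured by RNA sequencing in LNCaP cells. LNCaP is an established human prostate cancer line. The pBabe-GNA13 line (genotype label "GNA13 overexpression") stably expressed wild-type GNA13, which encodes the G protein subunit Gα13, from a retroviral pBabe-puromycin vector. The pBabe-vector line (genotype label "WT") carried the empty vector, and both lines were kept under puromycin. There was 1 stable line per condition, and the 3 libraries of each line came from cultures grown for 48 h, so p-values measure only the spread between cultures of these lines. SYT4 was selected on its measured counts in these same 6 libraries, for its difference between the lines. That difference is therefore described without a test and supports no other statement.

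The libraries held 33002160 to 40628970 counts, so 3 counts in a library corresponded to 0.0738 to 0.0909 counts per 1000000 counts of a library (CPM). GNA13 stood at 747 to 886 CPM in the pBabe-GNA13 libraries and at 65.4 to 76.7 CPM in the pBabe-vector libraries, which matches the labels, although the counts do not separate the construct from the cell's own gene. All 10 luminal prostate markers of a fixed list were detected, with a summed level of 7078 to 10184 CPM in pBabe-GNA13 and 6174 to 9143 CPM in pBabe-vector, KLK3 being the most abundant. edgeR, DESeq2 and limma-trend called 0 of them, with 2 at an unadjusted p under 0.05, as 8.46% of all genes were in edgeR. The fit with replicate pairs as a block called KLK2, KLK3, KRT8 and KRT18 higher, or 40% of the list. Over all genes that fit called 9.32% higher and 19.7% in either direction. In bulk RNA, fewer cells of a type and less RNA per cell cannot be told apart.

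Synaptotagmins carry a membrane anchor near the amino terminus and tandem C2 domains that face the cytosol. In several members these domains bind calcium and phospholipid, and so couple calcium entry to vesicle fusion. SYT4 and its closest paralog SYT11 carry a substitution at a calcium-coordinating residue of the first C2 domain. SYT4 is found on dense-core granules and near the Golgi of neurons and endocrine cells, and its transcript is known to be induced by depolarization and by cAMP. In non-neuronal cells, many neuronal genes are held down by the repressor REST.

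SYT4 (ENSG00000132872) lies on the minus strand of chromosome 18, at chr18:43267892-43277535 of GRCh38. The Gencode annotation gives it 8 transcripts with 4308 exonic bases in all. No other annotated gene overlaps the locus. The representative transcript, ENST00000255224.8, has 4 exons and 1275 coding bases. The 250 bases before its start, at chr18:43277491-43277740 of GRCh38.p14 as given by RefSeq, are shown because the gene is known as a cAMP-inducible one. They are written 5′ to 3′ on the minus strand, and the capitals mark the short cAMP response element (CRE) motif TGACG, read here from the opposite strand as CGTCA.

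SYT4 promoter: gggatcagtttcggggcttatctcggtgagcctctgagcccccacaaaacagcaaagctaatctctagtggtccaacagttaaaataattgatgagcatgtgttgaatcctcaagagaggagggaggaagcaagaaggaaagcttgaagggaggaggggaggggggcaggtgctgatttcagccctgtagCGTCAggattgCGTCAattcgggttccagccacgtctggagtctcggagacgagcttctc

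The CRE matches lay 60 to 56 and 49 to 45 bases before the start. On both strands of the same window, at least 1 TGACG was found in 21.2% of 35116 promoters and at least 2 in 4.76%. The full palindrome TGACGTCA, which contains the short motif, had 0 matches in the SYT4 window and was present in 1.65% of promoters. The left and right parts of the REST binding site, TTCAGCACC and GGACAGC, had 0 matches each, against 0.288% and 4.76% of promoters. The E-box CANNTG occurred 2 times, as CATGTG and CAGGTG, which 28.3% of promoters equalled or exceeded. TATAAA (10.7% of promoters), CCAAT (32%), GGGCGG (42.6%) and the CArG box bound by serum response factor (1.16%) had 0 matches. The window was 52.8% G and C, against a median promoter of 58.0%, and held 8 CpG. These matches describe letters, not bound sites.

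SYT4 was moderately expressed in the pBabe-vector line and severalfold higher in every pBabe-GNA13 library. In pBabe-vector it had 1058, 807 and 828 counts in replicates 1, 2 and 3. In pBabe-GNA13 it had 5533 counts in the library tagged std, 6439 in replicate 2 and 7028 in replicate 3. Scaled by total count and by TMM factors, these were 25.2, 23.8 and 25.8 CPM in pBabe-vector against 148, 189 and 204 CPM in pBabe-GNA13. The groups did not overlap, and the lowest pBabe-GNA13 library stood far above the highest pBabe-vector library. Over all genes, 7.3% had every pBabe-GNA13 library above every pBabe-vector library, a share given here as background because SYT4 was picked for such a pattern.

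**Figure D1:**
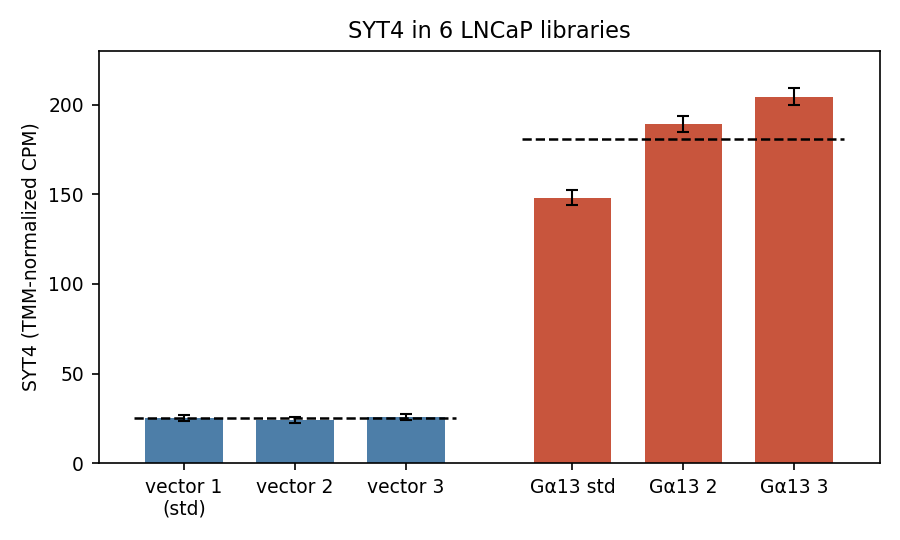
Level of SYT4 in TMM-scaled CPM in each of the 3 pBabe-vector and 3 pBabe-GNA13 libraries, as bars from 0, with exact 95% Poisson intervals as error bars and the mean of each line as a dashed line. The pBabe-vector libraries lie between 23.8 and 25.8 CPM and the pBabe-GNA13 libraries between 148 and 204 CPM, with no overlap.

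The means were 24.95 ± 1.01 CPM in pBabe-vector and 181 ± 29.1 CPM in pBabe-GNA13 (SD, n = 3 each). The difference was 156 CPM, the ratio of the means 7.23, and the fitted log2 fold change 2.85 (SE 0.14). Among the 14059 genes with a mean of at least 1 CPM, SYT4 held rank 16 by fitted log2 fold change, and among all genes rank 14 by the difference in CPM. The median log2 fold change of all genes was -0.0013. As a background, with SYT4 itself among the genes counted, edgeR's quasi-likelihood test called 24 genes at an adjusted p under 0.05, or 0.139% of the genes, with 20 higher in pBabe-GNA13 (0.116%) and 4 lower (0.0231%). DESeq2 called 1.68% of the genes it tested and limma-trend 0.0289%.

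**Figure D2:**
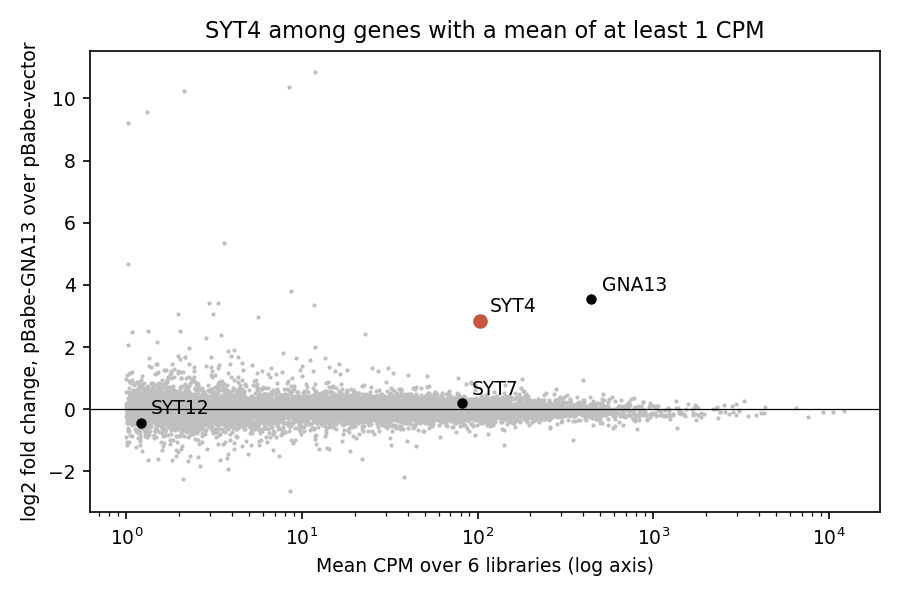
Log2 fold change of pBabe-GNA13 over pBabe-vector against mean level (CPM, log axis), for the genes with a mean of at least 1 CPM, with SYT4, SYT7, SYT12 and GNA13 marked. SYT4 lies at 2.85 on the log2 scale, below GNA13 at 3.54 and far above the median of these genes at -0.0141.

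In the 3 pBabe-vector libraries the exact 95% Poisson intervals of SYT4, 23.7 to 26.8, 22.2 to 25.5 and 24.1 to 27.6 CPM, overlapped. In the pBabe-GNA13 libraries the intervals, 144 to 152, 185 to 194 and 200 to 209 CPM, were apart from each other. These intervals cover counting error only, and overlap does not show that libraries were equal. The coefficient of variation was 4.06% in pBabe-vector and 16.1% in pBabe-GNA13. The order of the pBabe-GNA13 libraries in SYT4 was not their order in GNA13. GNA13 was at 820 CPM in the std library, 886 in replicate 2 and 747 in replicate 3. The library with the most SYT4 thus had the least GNA13. With 3 libraries this is a description only, and a link between the levels was not tested.

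Paired by replicate, SYT4 was 5.87 times as high in pBabe-GNA13 in the std pair, 7.94 times in pair 2 and 7.92 times in pair 3. Pairs 2 and 3 were alike and the std pair was lower. A fit with the pairs as a block gave a log2 fold change of 2.84. The pBabe-vector libraries were close to each other, so most of the gap between the pairs lay in the pBabe-GNA13 libraries. Over all genes, 47.4% differed among the pairs (edgeR quasi-likelihood F-test of the replicate terms of that fit), given as background only, since the values of SYT4 in these libraries had served to choose it.

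To set SYT4 against other genes, counts were divided by the summed exon length. SYT4 then stood at 5.79 ± 0.235 RPKM, the CPM per kilobase of exon, in pBabe-vector and 41.9 ± 6.75 RPKM in pBabe-GNA13. By RPKM it ranked from 6143 to 6414 among 14482 genes with a known length in the pBabe-vector libraries and from 857 to 1187 in the pBabe-GNA13 libraries. SYT4 thus lay in the middle of the range in one line and near its top in the other.

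SYT4 shared the table with 10 other synaptotagmins, while SYT2, SYT5, SYT6, SYT9, SYT10 and SYT16 were not analysed here. SYT7, a high-affinity calcium sensor of lysosomes and dense-core granules, was the most abundant synaptotagmin in pBabe-vector per length, at 9.99 RPKM against 5.79 for SYT4. In pBabe-GNA13 the order was the opposite, with 11.5 RPKM for SYT7 and 41.9 for SYT4. SYT4 made up 39.1, 29.6 and 40.0% of the summed synaptotagmin RPKM in the pBabe-vector libraries and 75.7, 73.3 and 84.3% in the pBabe-GNA13 libraries.

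SYT7 had 65.7, 94.6 and 66.1 CPM in the pBabe-vector replicates and 80.7, 116 and 64.2 CPM in the std, 2 and 3 libraries of pBabe-GNA13. The groups overlapped, and replicate 2 was the highest in both. The log2 fold change was 0.21 (SE 0.24) with an edgeR adjusted p of 0.931, and it turned to -0.06 without pBabe-GNA13 replicate 2. With the replicate pairs as a block the adjusted p was 0.0258, a fit in which 19.7% of all genes were called, 9.32% higher and 10.4% lower.

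The other 9 synaptotagmins were at 1.39 CPM or less in both lines, and most were near the limit of detection. SYT12, known from synaptic vesicles, averaged 1.03 CPM in pBabe-GNA13 and 1.39 in pBabe-vector (edgeR adjusted p = 0.930). SYT15 had 31, 40 and 16 counts against 26, 35 and 11, and these may include reads of its near-identical copy SYT15B. SYT3 had 7, 29 and 19 counts against 27, 30 and 5, and SYT13 had 13, 7 and 3 against 15, 9 and 5. None of these showed groups that stood apart. SYT17 had 5, 15 and 1 counts against 1, 7 and 0. SYT11, the closest paralog of SYT4, had 3, 3 and 6 counts against 2, 1 and 2, with a log2 fold change of 1.23 (SE 0.70, edgeR adjusted p = 0.743). SYT1, the main sensor of fast synaptic release, had 1, 0 and 4 counts against 0, 0 and 0. These depths do not allow a statement on whether the lines differ in SYT11, SYT17 or SYT1. SYT8 and SYT14 had at most 1 count in any library.

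**Figure D3:**
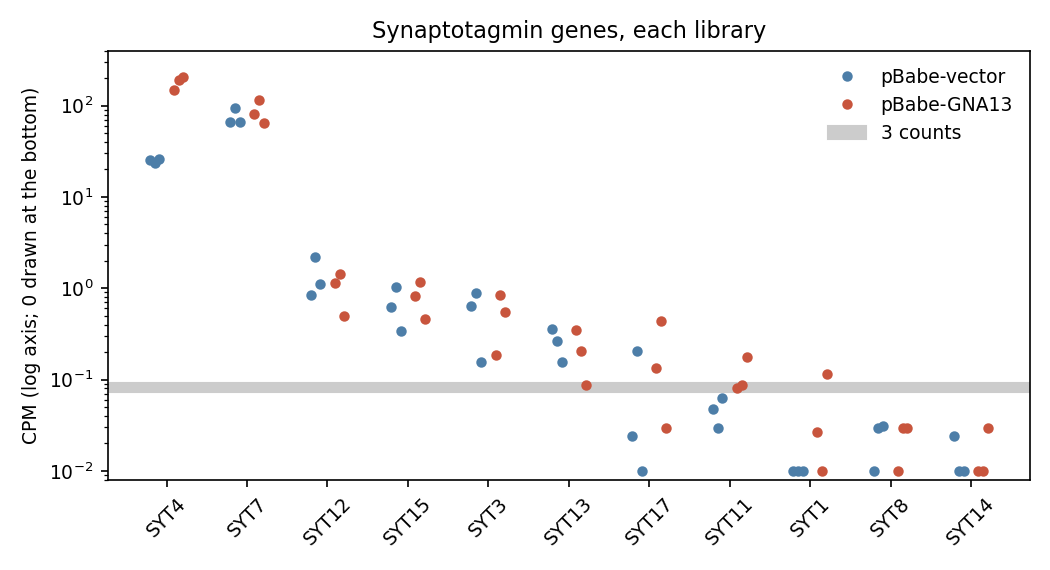
Level of SYT4 and of the 10 other synaptotagmins (CPM on a log axis, with 0 drawn at the bottom), each point being 1 library of pBabe-vector or pBabe-GNA13. SYT4 is the gene whose lines stand far apart, SYT7 overlaps at 64.2 to 116 CPM, and several of the rest lie on or below the grey band that marks 3 counts, 0.0738 to 0.0909 CPM.

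Of the 10 other synaptotagmins, 7 were higher and 3 lower in pBabe-GNA13, with a median log2 fold change of 0.12. The median was 0.25 without the 2 genes that had at most 3 summed counts in each line. There, 1 gene with 0 counts in pBabe-vector was set to a bound. None of the 10 was called by edgeR, 0 had an unadjusted p under 0.05, and DESeq2 and limma-trend called 0, against 0.139% of all genes in edgeR. Only SYT7 was called with the replicate block, or 10% of them beside 19.7% of all genes.

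Among relatives with C2 domains, 24 of the 28 listed genes were in the table. Of these, 14 were higher and 10 lower, the median log2 fold change was 0.11, and edgeR and limma-trend called 0, with 3 at an unadjusted p under 0.05. DESeq2 called MCTP2, a membrane-anchored C2 protein, beside 1.68% of the genes it tested. MCTP2 had 40.0, 30.3 and 35.2 CPM in pBabe-GNA13 and 54.0, 51.9 and 62.9 CPM in pBabe-vector. The groups were apart, with a log2 fold change of -0.68 and an edgeR adjusted p of 0.181. UNC13B, a priming factor for vesicle fusion, had a log2 fold change of 0.25 (0.429), and RIMS4, of the active-zone RIM family, one of -0.68 (0.486). Here and in the gene groups that follow, a value in parentheses is the edgeR adjusted p, after the log2 fold change where both stand there. ESYT1, which tethers endoplasmic reticulum to plasma membrane, was at 0.25 (0.802). With the block 7 genes were called, or 29.2% of the list beside 19.7% of all genes. DOC2B, ESYT1, RIMS1, UNC13B and UNC13D were higher and MCTP2 and RIMS4 lower. At an unadjusted p under 0.05 the shares were 12.5% of the list and 8.46% of all genes. The slp proteins SYTL1 to SYTL5, effectors of RAB27, were called in neither fit.

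The fusion machinery itself, that is SNAREs, their regulators and the RAB3 and RAB27 GTPases, was broadly expressed. Of 36 listed genes 30 were in the table and 28 averaged at least 1 CPM, with a summed level of 1149 to 1270 CPM in pBabe-GNA13 and 1191 to 1256 CPM in pBabe-vector. As many genes were higher as lower (15 each), and the median log2 fold change was 0.0071. edgeR, DESeq2 and limma-trend called 0, with 1 at an unadjusted p under 0.05, or 3.33% of the list beside 8.46% of all genes. That gene, VAMP1, a vesicle SNARE, had a log2 fold change of 0.66 (0.309). RAB27B, a granule-docking GTPase, was at 0.30 (0.601), STX2, a plasma membrane syntaxin, at 0.32 (0.611), and RAB3B at 0.25. RAB3B was the most abundant member in pBabe-GNA13, with 106 against 89.1 CPM, and SNAP29 in pBabe-vector, with 88.2 against 100.4 CPM. The neuronal SNARE SNAP25 was almost undetected, with 1 count in 1 library of each line, while SNAP23, its widely expressed relative, stood at 42.3 and 39.9 CPM. With the block 11 genes were called, 5 higher, with VAMP1, STX2, RAB27B and RAB3B among them, and 6 lower, with VAMP2, RAB3A, RAB3D and SNAP29 among them, or 36.7% of the list beside 19.7% of all genes.

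Cargo and processing enzymes of dense-core granules were sparse. Of 25 listed genes 11 were in the table and 7 averaged at least 1 CPM. CHGA, CHGB, PCSK1 and PCSK2 were not analysed here. The summed level was 136 to 155 CPM in pBabe-GNA13 and 122 to 159 CPM in pBabe-vector. Here 7 genes were higher and 4 lower, with a median log2 fold change of 0.14, and edgeR, DESeq2 and limma-trend called 0, with 2 at an unadjusted p under 0.05. GAL, the precursor of the neuropeptide galanin, had 27.5, 26.0 and 27.7 CPM in pBabe-GNA13 against 17.0, 22.5 and 18.01 in pBabe-vector, groups that were apart (log2 fold change 0.50, 0.338). PCSK1N, an inhibitor of a prohormone convertase, was at -0.56 (0.488) and SV2C, a vesicle glycoprotein, at 0.50 (0.617). CPE, which trims prohormones, was the most abundant, at 70.7 and 65.3 CPM (log2 fold change 0.12, 0.896). With the block 4 genes were called, GAL, PAM and SV2C higher and PCSK1N lower, or 36.4% of the list beside 19.7% of all genes. At an unadjusted p under 0.05 the shares were 18.2% of the list and 8.46% of all genes.

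Neuroendocrine markers were examined because SYT4 is a gene of endocrine cells. Of the 16 markers 9 were in the table, and CHGA, INSM1 and NEUROD1 were not analysed here. Their summed level was 171 to 201 CPM in pBabe-GNA13 and 119 to 170 CPM in pBabe-vector, and its largest member in every library was DDC, the decarboxylase that makes dopamine and serotonin. DDC had 115, 116 and 136 CPM in pBabe-GNA13 and 55.3, 72.5 and 88.1 CPM in pBabe-vector. The groups were apart, with a log2 fold change of 0.77 that edgeR did not call (0.247). DESeq2 called it, beside 1.68% of the genes it tested. SYP, the synaptic vesicle protein synaptophysin, went the other way at -0.57 (0.403), ENO2, neuronal enolase, was at -0.32 (0.912), and ONECUT2, a transcription factor, at 0.08. PROX1, a transcription factor, had 5, 1 and 10 counts against 0, 1 and 1 (0.547), and SOX2 had 1 count in all libraries together. In all, 6 markers were higher and 3 lower. edgeR and limma-trend called 0, with 3 at an unadjusted p under 0.05, or 33.3% beside 8.46% of all genes. The block called 3, DDC higher and ENO2 and SYP lower, or 33.3% beside 19.7% of all genes. The median log2 fold change, 0.55, rested on genes below 1 CPM, and with low counts filtered out it was -0.11. The part of such cells in the SYT4 difference was not tested.

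**Figure D4:**
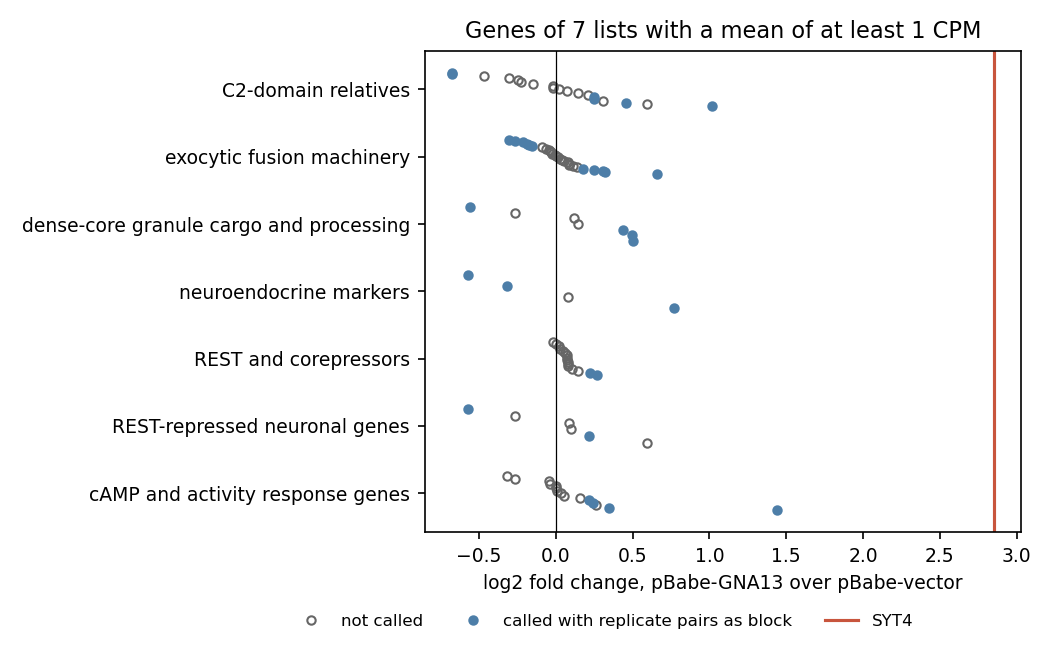
Log2 fold change of pBabe-GNA13 over pBabe-vector for the genes of 7 lists that averaged at least 1 CPM, with filled points for genes called with the replicate pairs as a block and a line at SYT4. SYT4 at 2.85 lies beyond every plotted gene, and most points lie within 0.5 of 0.

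REST, the repressor of neuronal genes, was expressed at 84.0 CPM in pBabe-GNA13 and 79.9 CPM in pBabe-vector, a log2 fold change of 0.07 (0.981 without the block and 0.414 with it). All 16 listed genes of REST and its corepressors averaged at least 1 CPM. Of these 15 were higher and 1 lower, by small amounts with a median log2 fold change of 0.07 and a largest value of 0.27. edgeR, DESeq2 and limma-trend called 0, with 2 at an unadjusted p under 0.05. These were CTDSP1, a phosphatase recruited to REST sites (0.27, 0.398), and EHMT1, a histone H3 methyltransferase (0.22, 0.563), which the block called higher. Each count was 12.5% of the list, beside 8.46% of all genes at that unadjusted p. With the block 9.32% of all genes were called higher and 19.7% in either direction.

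None of the neuronal genes known to be repressed through REST was called by edgeR without the block. Of 24 listed genes 14 were in the table and 6 averaged at least 1 CPM. There were 9 higher and 5 lower, with a median log2 fold change of 0.09. edgeR, DESeq2 and limma-trend called 0, with 1 (SYP) at an unadjusted p under 0.05. GRIN1, an NMDA receptor subunit, stood at 49.8 and 42.9 CPM (0.21, 0.839), and the block called it higher and SYP lower. The shares were 7.14% at an unadjusted p under 0.05 and 14.3% with the block, beside 8.46% and 19.7% of all genes. SCN2A, GRIA2 and INA, of neuronal excitability and cytoskeleton, had 0 to 2 counts in any library.

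Genes of cAMP and activity signalling were examined because the SYT4 transcript is known to answer these stimuli. Of 25 listed genes 21 were in the table, 13 higher and 8 lower, with a median log2 fold change of 0.03. edgeR, DESeq2 and limma-trend called 0, with 2 at an unadjusted p under 0.05. CREB1, which binds the CRE motif, was at 62.5 and 61.1 CPM (0.03, 1). Its coactivator CRTC2 was at 0.24 (0.585) and the nuclear receptor NR4A1, an early response gene, at 0.35 (0.702). FOS had 37, 178 and 13 counts in pBabe-GNA13 against 32, 42 and 13 in pBabe-vector. Its mean log2 fold change of 1.44 (0.777) thus came from pBabe-GNA13 replicate 2. SYT4 in that library was between the other pBabe-GNA13 libraries, and a link between the genes was not tested. EGR3 had 7, 13 and 7 counts against 5, 3 and 1. With the block 4 genes were called higher, CRTC2, CRTC3, FOS and NR4A1, and 0 lower. That was 19% of the list, beside 9.32% of all genes called higher and 19.7% called in either direction. At an unadjusted p under 0.05 the shares were 9.52% of the list and 8.46% of all genes.

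Markers of basal and stromal cells, the other cell types a prostate sample could hold, had a summed level of 27.7 to 39.1 CPM in pBabe-GNA13 and 21.1 to 35.8 CPM in pBabe-vector. Of 9 measured genes, 7 were higher and 2 lower, with a median log2 fold change of 1.25. That median was the value of COL3A1, a gene at 0.52 CPM, and only 5 of the 9 averaged at least 1 CPM. edgeR and limma-trend called 0, with 3 at an unadjusted p under 0.05, or 33.3% of the list beside 8.46% of all genes. DESeq2 called KRT14 higher and ACTA2 lower, beside 1.68% of the genes it tested. The block called 6, or 66.7% of the list beside 19.7% of all genes. These were KRT5, KRT14, COL1A2, COL3A1 and VIM higher and ACTA2 lower. Without pBabe-GNA13 replicate 2 edgeR called 1, COL1A2, in a fit that called 15 of all genes. The basal markers KRT5 and TP63 and the stromal collagen COL1A2 had 0 counts in replicate 2 of both lines. In the std library and replicate 3 of pBabe-GNA13, KRT5 had 115 and 128 counts, COL1A2 had 96 and 87, and TP63 had 4 and 5. In pBabe-vector replicates 1 and 3, KRT5 had 24 and 19 counts, COL1A2 had 2 and 3, and TP63 had 0 and 0. In pBabe-vector, the absence of TP63 was thus not particular to replicate 2. Other markers were present in pBabe-GNA13 replicate 2, with 153 counts of KRT14, 139 of VIM, 587 of COL1A1 and 57 of ACTA2. The part of such cells in the SYT4 difference was not tested.

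Gene positions were reached by symbol for 83.7% of the genes, so unmatched genes of chromosome 18 are left out here. None of the nearest measured genes with a known position was called between the lines by edgeR. Of these 20 genes, 10 on each side, 10 were higher and 10 lower in pBabe-GNA13, with a median log2 fold change of -0.02. limma-trend also called 0, and 2 had an unadjusted p under 0.05 in edgeR, or 10% beside 8.46% of all genes. The nearest before SYT4, counted along the chromosome, was PIK3C3, a lipid kinase of autophagy, whose start lies 1.31 Mb away. It had 33.8, 33.9 and 29.0 CPM in pBabe-GNA13 against 43.2, 39.2 and 36.2 CPM in pBabe-vector (log2 fold change -0.29, 0.525). The nearest after it was SETBP1, a DNA-binding protein gene 1.41 Mb away, with 34.9, 34.7 and 37.0 CPM against 27.5, 25.5 and 26.6 CPM (0.42, 0.252). In both genes the groups were apart, lower for PIK3C3 and higher for SETBP1. Among the other neighbours C18orf21, ELP2 and ATP5A1 also had groups apart, each lower in pBabe-GNA13. Over all genes 7.3% had groups apart in the higher direction, and the share in the lower direction is not given here. PIK3C3 and SETBP1 were the 2 genes the block called, or 10% beside 19.7% of all genes. SETBP1 was the 1 that DESeq2 called, beside 1.68% of the genes it tested.

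**Figure D5:**
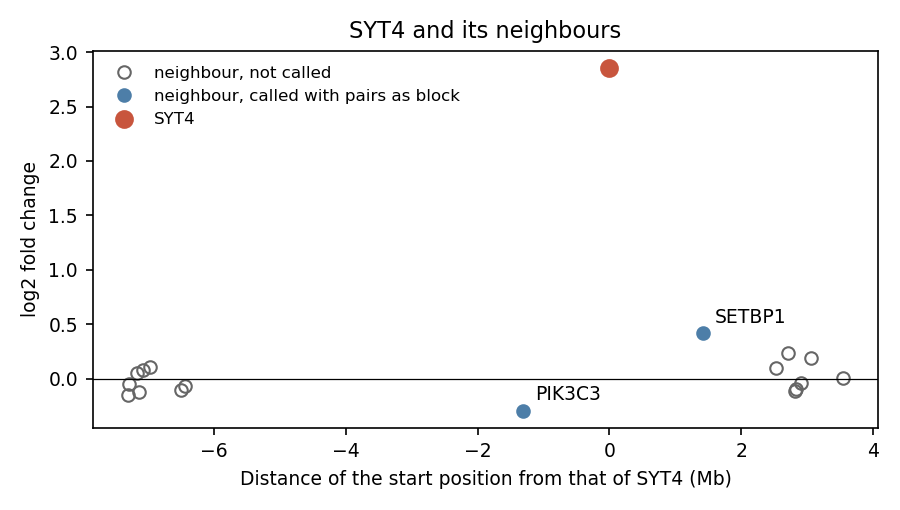
Log2 fold change of SYT4 and of the 17 neighbours that averaged at least 1 CPM, against the distance of their start from that of SYT4 in Mb, with filled points for those called with the replicate pairs as a block. SYT4 stands at 2.85, and the neighbours lie between -0.29 for PIK3C3 and 0.42 for SETBP1.

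Over the other 205 genes of the table that were placed on the chromosome by symbol, the median log2 fold change was -0.0068. edgeR called 3 higher and 0 lower, or 1.46% beside 0.139% of all genes. At an unadjusted p under 0.05 there were 20, or 9.76% beside 8.46%, and the block called 19 in each direction, or 18.5% beside 19.7%. The 3, named after their values were seen, lay far from SYT4. CHST9, a sulfotransferase gene 16.4 Mb before, had 53, 66 and 40 counts against 0, 0 and 0, at least 54.1-fold higher with a floor of 3 counts over the pBabe-vector group (0.0379). CDH7, a cadherin gene 22.5 Mb after, had 12.6, 21.2 and 15.03 CPM against 0.882, 0.709 and 1.93 CPM (3.802, 0.0249). DSEL, which encodes an epimerase of dermatan sulfate, lies 24.2 Mb after and had 119, 108 and 126 CPM against 65.3, 64.7 and 67.1 CPM (0.84, 0.0352). With the block the edgeR adjusted p-values were 8.56e-09 for CHST9, 3.05e-14 for CDH7 and 5.66e-12 for DSEL. With 6 libraries that fit leaves few residual degrees of freedom, so such small values lean on a spread estimated over many genes. Without the block, leaving out 1 library ended the call of DSEL in 6 of 6 cases (adjusted p up to 0.246), of CHST9 in 5 (up to 0.267) and of CDH7 in 4 (up to 0.169), and the call of CHST9 held without pBabe-vector replicate 3 and that of CDH7 without replicate 3 of either line.

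The genes most like SYT4 were ranked by Pearson correlation of log2 CPM over the 6 libraries among 14058 genes with a mean of at least 1 CPM. All points share the libraries, and the gap between the lines sets most of each value, so these are descriptions. The highest were THBS4, a matricellular thrombospondin (0.997), GTF2H2B (0.996), YBX3, a cold shock domain protein (0.996), FAM206A (0.995) and GNA13 (0.992). GTF2H2B has near-identical copies, and its counts are uncertain. The lowest were COMMD7 (-0.9995), PSMD5, a proteasome chaperone (-0.997), and MAGEA4, a cancer-testis antigen (-0.996). In all, 96 genes had a correlation above 0.95 and 263 above 0.9.

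Apart from GNA13, with a log2 fold change of 3.54, these genes differed less between the lines than SYT4. The log2 fold change was 0.92 for THBS4, 0.48 for GTF2H2B, 0.40 for YBX3 and 0.44 for FAM206A, all well below the 2.85 of SYT4. For COMMD7 it was -0.42, for PSMD5 -0.60 and for MAGEA4 -1.15. MAGEA4 had 99.8, 83.1 and 81.8 CPM in pBabe-GNA13 against 201, 203 and 183 CPM in pBabe-vector. Since the correlation with SYT4 chose these genes and mostly reflects the gap between the lines, their differences are given with no test.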

How the data were processed

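RNA of LNCaP pBabe-vector and pBabe-GNA13 cultures (3 libraries each) was sequenced as paired-end reads. The authors deposited a table of read counts per gene symbol. Per the labels, reads were checked with FastQC 0.11.7, aligned with STAR and counted with featureCounts. The strand setting is not given in the sources used here. Although the table is called CPM, its values are whole numbers that sum to the library sizes given in the report, so they were treated as counts. The filter behind the 17297 genes is not stated, and 179 of them had no reads. A further 0 columns were left unused.

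Counts were scaled by TMM and tested with edgeR 4.0.16 (glmQLFit and glmQLFTest, no filter on low counts, abundance trend, 2 groups, no block), with Benjamini-Hochberg adjustment over all genes and a call at an adjusted p under 0.05. SYT4 was part of this fit, but no test of its difference between the lines is reported. DESeq2 1.42.0, limma 3.58.1 (limma-trend), other scalings, a filter, no abundance trend, the replicate block and leaving out each library were alternatives. The scripts were tested on simulated data. CPM used the TMM factors. RPKM used the union of exons in Gencode (GRCh38), reached by symbol for 83.7% of the genes (13773 directly and 709 by an older symbol). The same match gave the gene positions, so only matched genes could count as neighbours.

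Library names pair the replicates. The pBabe-GNA13 library tagged std carries a number that another library also has, so only its line was taken from the name, and it was paired with pBabe-vector replicate 1 because both carry the tag std. Deviations from the line means correlated at 0.659 (std), 0.807 (pair 2) and 0.888 (pair 3) over 12778 genes. Between other libraries of opposite lines the values were -0.736 to 0.125. The deviations within a line cancel out for each gene, so these values depend on each other. They give the std pair little support of its own, and that pair rests mainly on the shared tag.

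Genes were named from a set made of SYT4, the other synaptotagmins, GNA13, the 10 nearest measured genes on each side, the 5 most and 3 least correlated genes, and in each list the called members or else the 3 with the smallest p and the 3 with the highest level. Not every member of the set is named. Other genes were named after their values were seen. The gene, the lists and the tests were chosen with earlier results of these data known. The promoter came from RefSeq.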

Additional observations from a re-analysis of the deposited data

How the results depend on the processing

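The log2 fold change of SYT4 ranged from 2.76 (without pBabe-GNA13 replicate 3) to 2.99 (without the pBabe-GNA13 std library) over the alternatives, all within the spread of replicates. Counts of calls moved far more. Over all genes DESeq2 called 271, limma-trend 5 and fits without 1 library 2 to 15, against 24. The replicate block called 3407, which included all 24. With the block, calls went from 0 to 1 among other synaptotagmins, 7 among C2-domain relatives, 11 in the fusion machinery, 4 among granule genes, 3 among neuroendocrine markers, 2 each in both REST lists and among the neighbours, 4 each among cAMP and luminal genes and 6 among basal and stromal markers. DESeq2 called 1 C2-domain relative, 1 neuroendocrine marker, 1 neighbour and 2 basal or stromal markers, and fits without 1 library called 0 to 1 of the last. The replicate terms of SYT4, whose values had served to choose it, gave an adjusted p of 0.0214 in edgeR and 0.0764 in DESeq2 and support nothing. SYT7, called higher only with the block, was at -0.06 without pBabe-GNA13 replicate 2. Beyond these and the correlated genes, the block changed no call given here. Of the main results, 147 repeats stayed as they were, 25 moved and 1 lost its call. Of single genes and list medians, 1011 stayed, 46 gained a call, 6 (all MAGEA4) lost it and 3 moved. This tally leaves out CHST9, CDH7 and DSEL, whose calls were also lost in fits without 1 library, as given above. The 9 rarest synaptotagmins averaged at most 1.39 CPM, so their differences are imprecise, and the causes of these changes were not tested.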
